A study of Mus musculus with 24 samples.

Results

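C2C12 cells, a mouse myoblast line, were compared in DM at 5 mM and at 25 mM glucose. The members are the 6 cultures whose titles read DM_5mM or DM_25mM, with replicate numbers 1 to 3 in each, out of 12 cultures in the series. Each culture was hybridised to 2 array designs, MA and MB, so that the comparison rests on 12 of the 24 arrays. The labels do not spell out the 2 abbreviations, which in work on C2C12 usually mean growth medium (GM) and differentiation medium (DM). The remaining 6 cultures were kept in GM at 5 mM (3) or 25 mM (3) and are used for the test of whether the glucose difference depends on the medium. All 12 cultures are of one line with no stated genetic change, and no further agent, culture time, serum content or osmotic control is given. The series asks whether calorie restriction alters the differentiation of skeletal myoblasts, and glucose is the nutrient that the titles name. Nothing in the labels says that the replicates were grown separately, so the p-values speak of the spread among the samples measured, which may be technical.

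Myoblasts that leave the cell cycle switch on MyoD family factors, then genes of fusion, and then the contractile proteins and energy enzymes of the myotube. Glucose supplies energy through glycolysis and also the sugar precursors from which N-linked glycans are built in the endoplasmic reticulum (ER), where secreted and membrane proteins fold. Chaperones such as BiP, encoded by Hspa5, bind unfolded proteins there, and a shortage of sugars or of folding capacity is known to act on their genes through the unfolded protein response.

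The values are probe set intensities as deposited, and differences are on the log2(intensity + 20) scale, 5 mM minus 25 mM, from limma. Each gene is represented by 1 probe set, and of 12857 genes tested limma called 171 at a Benjamini-Hochberg adjusted p under 0.05. At 5 mM 57 genes (0.443%) rose and 114 (0.887%) fell, of which 15 and 49 changed at least 2-fold. The 3 cultures of one group all lay beyond the 3 of the other for every one of the 171. Over all genes the 5 mM cultures all lay above in 894 (6.95%) and all below in 907 (7.05%). The median difference over all genes was 0.01, with 6635 positive and 6222 negative differences. At an unadjusted p under 0.05 limma found 1220 of the 12857. Of 85 called genes with another tested probe set, 72 had all others on the same side, and 22 had another one called. Of the 231 probe sets called, 86 higher and 145 lower, 222 were on MA and 9 on MB, where cultures of a group resembled each other less (correlations across probe sets of 0.776 to 0.828, against 0.946 to 0.975 on MA).

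DM_5mM-2 and DM_25mM-3 stood apart from the other DM cultures. Their control probe set for 18S ribosomal RNA read 23.0 and 48.1 on MA, against 279 to 501 in the other 4, and many of the brightest muscle genes read lower in them. They are called low-18S here. With 1 of them in each group, the 18S class as a block leaves each log2 difference in DM unchanged and lowers its error: 181 genes (1.41%) then rose and 236 (1.84%) fell, and the 171 kept their calls. With only the high-18S cultures in the fit 93 of the 171 stayed called, and with only the 6 DM arrays 72. Leaving out any of the other 4 cultures lowered the count of called probe sets from 231 to 137 (without DM_5mM-1), 139 (DM_5mM-3), 131 (DM_25mM-1) and 144 (DM_25mM-2), against 203 and 209 without DM_5mM-2 and DM_25mM-3.

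Genes of the ER moved in both directions. Hspa5 (Entrez 14828, chromosome 2, 34772090 to 34776529, GRCm38.p6) read 875, 1086 and 1063 in the 5 mM cultures, in order of replicate number, and 3348, 3185 and 2888 at 25 mM. It fell by 1.62 on the log2 scale (SE 0.16, limma, adjusted p = 0.000137), and a second probe set gave -1.66 (adjusted p = 0.00187) while one on MB gave -0.27. Manf, a secreted ER stress protein, read 448, 440 and 482 against 1222, 1383 and 1026, a difference of -1.36 (SE 0.13, adjusted p = 0.000137). Every 5 mM culture lay far below every 25 mM culture for both genes, the low-18S pair included. Creld2, an ER protein with roles in folding of secreted proteins, read 78.8, 69.5 and 115 against 310, 406 and 236 (-1.64, SE 0.21, adjusted p = 0.000854). These 3 were the members of the list of the unfolded protein response and ER chaperones that fell.

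In the same list 3 members rose, among them disulfide isomerases. Pdia3, a disulfide isomerase that works with the lectin chaperones on glycoproteins, read 2630, 2351 and 2969 at 5 mM and 1311, 1454 and 1118 at 25 mM (1.02, SE 0.13, adjusted p = 0.000967), although a dimmer probe set on MB gave -0.10 and was not called. Pdia6, a further disulfide isomerase, read 1255, 1227 and 1675 against 718, 835 and 735 (0.83, SE 0.14, adjusted p = 0.00564), while a dimmer probe set gave 0.24 and was not called. Dnajb11, a co-chaperone of BiP, read 1487, 1120 and 1427 against 610, 931 and 540 (0.96, SE 0.17, adjusted p = 0.00852). The groups did not overlap for any of the 3. The call of Dnajb11 was lost without DM_5mM-1 (adjusted p = 0.0539) or DM_25mM-1 (0.0567). With only the 6 DM arrays in the fit the calls of Pdia6 (0.0575) and Dnajb11 (0.0982) were lost.

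Of the 32 members tested, 26 were not called, and the median of the list was 0.11. Several did not differ beyond their spread. The stress-induced factor Ddit3 read 78.2, 66.4 and 79.1 against 94.1, 79.9 and 49.4 (0.03, SE 0.24), and the chaperone Hsp90b1 read 690, 1186 and 844 against 558, 617 and 979 (0.34, SE 0.23). Others were near the threshold, and are named after their values were seen. Xbp1, a transcription factor of the response, differed by -0.48 (limma, adjusted p = 0.0629, and 0.00586 with the 18S block). Herpud1, of ER-associated degradation, differed by -0.89 (0.0992 and 0.00212), and the disulfide isomerase Pdia4 by 1.08 (0.107 and 0.000885). Calr, the lectin chaperone calreticulin, differed by 0.39 (0.616 and 0.0339). With the block 7 members rose and 5 fell.

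**Figure D1:**
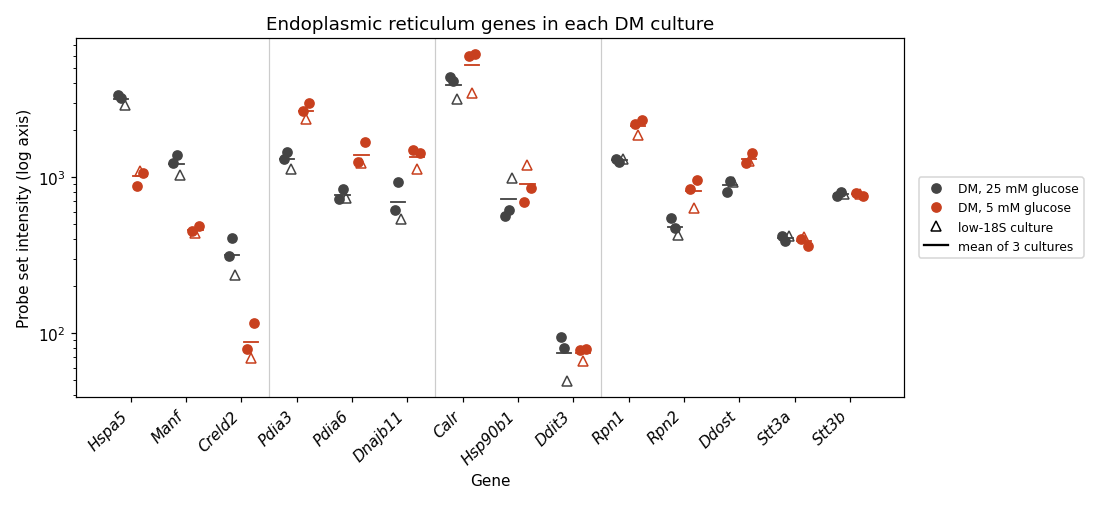
Intensity of ER genes (log axis) in each DM culture, 25 mM glucose in grey and 5 mM in red, with open triangles for the low-18S cultures and bars for the mean of 3. Hspa5, Manf and Creld2 lie lower at 5 mM, Pdia3, Pdia6 and Dnajb11 higher, and Ddit3, Stt3a and Stt3b overlap.

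The enzyme complex that attaches glycans to new proteins, oligosaccharyltransferase, had 3 subunits among the risen genes. Rpn1 read 2190, 1869 and 2330 at 5 mM against 1312, 1238 and 1298 at 25 mM (0.72, SE 0.13, limma, adjusted p = 0.00764), and 4 further probe sets of Rpn1 were called in the same direction. Rpn2 differed by 0.72 (SE 0.15, adjusted p = 0.0249) and Ddost by 0.54 (SE 0.12, adjusted p = 0.0270). Rpn2 lost its call without DM_5mM-1, DM_5mM-3, DM_25mM-2 or DM_25mM-3 (0.0833 to 0.135), and Ddost without any culture but DM_25mM-3 (0.0511 to 0.168). With only the DM arrays all 3 lost their calls (0.0770 for Rpn1, 0.141 for Rpn2 and 0.172 for Ddost). The catalytic subunits Stt3a and Stt3b, named after their values were seen, read 362 to 414 against 389 to 417 and 753 to 792 against 755 to 796. Of 48 genes of ER translocation and N-glycosylation these 3 rose and 0 fell, with a median of 0.12, and 36 differences were positive. Prkcsh, a subunit of glucosidase II, which trims glucose from new glycans, also rose, from 306, 309 and 301 to 594, 471 and 506 (0.73, SE 0.11, adjusted p = 0.00301). It is in no list and was picked after its value was seen.

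The stretches upstream of Hspa5 and Creld2, which fell, and of Pdia6, which rose, are shown because they hold a known element. They are the 250 bases before the annotated start, from RefSeq (GRCm38.p6), 5′ to 3′ on the gene's strand. Capitals mark the fixed bases of the ER stress response element, searched as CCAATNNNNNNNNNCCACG on both strands.
Hspa5, chr2:34771840-34772089, plus strand: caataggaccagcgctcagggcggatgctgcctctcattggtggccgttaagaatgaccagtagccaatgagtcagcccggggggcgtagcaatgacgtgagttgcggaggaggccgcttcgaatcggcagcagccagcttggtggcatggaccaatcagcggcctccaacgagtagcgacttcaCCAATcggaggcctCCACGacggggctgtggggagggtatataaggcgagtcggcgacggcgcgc
Creld2, chr15:88819396-88819645, plus strand: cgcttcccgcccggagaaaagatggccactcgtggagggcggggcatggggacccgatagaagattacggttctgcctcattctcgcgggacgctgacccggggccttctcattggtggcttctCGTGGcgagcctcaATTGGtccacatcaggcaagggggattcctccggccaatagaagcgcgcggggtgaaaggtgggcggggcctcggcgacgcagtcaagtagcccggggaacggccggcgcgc
Pdia6, chr12:17266339-17266588, plus strand: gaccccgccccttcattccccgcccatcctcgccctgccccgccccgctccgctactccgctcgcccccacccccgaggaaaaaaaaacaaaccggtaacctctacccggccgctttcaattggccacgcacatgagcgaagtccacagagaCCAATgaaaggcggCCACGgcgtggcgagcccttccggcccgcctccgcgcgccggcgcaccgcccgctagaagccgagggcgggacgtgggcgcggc
The match begins 65 bases before the start of Hspa5, 98 before that of Pdia6 and 126 before that of Creld2, where it is on the opposite strand. Of 27025 genes with a RefSeq promoter, 35 (0.13%) hold a match in these 250 bases. Among the called ER genes it was found in Hspa5 and Creld2, which fell, and in Pdia6, which rose. Pdia3, Dnajb11, Rpn1, Rpn2 and Ddost had none in this window, and Manf had no promoter in the table. The motif overlaps the CCAAT box, which 37.5% of promoters hold. A match is a description of letters and not of binding.

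Cell cycle genes separated by phase. All 49 tested genes of G2 and mitosis were on the lower side at 5 mM, 15 fell and 0 rose, and the median difference was -0.48. Ube2c, an enzyme of the complex that marks mitotic proteins for destruction, read 75.0, 81.0 and 109 at 5 mM and 251, 258 and 220 at 25 mM (-1.29, SE 0.13, limma, adjusted p = 0.000170). Pttg1, securin, read 377, 448 and 504 against 920, 1068 and 978 (-1.13, SE 0.13, adjusted p = 0.000411). Mki67, the proliferation antigen Ki-67, read 140, 127 and 145 against 294, 287 and 254 (-0.92, SE 0.13, adjusted p = 0.00149). The groups did not overlap for any of the 3. Cenpa, the centromeric histone, and Cdc20, an activator of the same complex, fell (-1.31 and -0.84), although both MB probe sets of Cenpa were on the positive side and not called. These 5 calls held under all omissions of 1 culture. Depdc1b, of mitotic entry and in no list, was among the largest falls (MB, 31.1 to 65.2 against 215 to 281, -2.11, SE 0.29, adjusted p = 0.00272, and 0.171 with only the DM arrays). In GM the level of Ube2c was 1064 to 1104 at 5 mM and 1042 to 1226 at 25 mM.

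Genes of G1 and S phase leaned the other way. Of 47 tested 41 had a positive difference, 3 rose and 0 fell, with a median of 0.41, and with the 18S block 12 rose. Cdt1, which licenses replication origins, read 331, 312 and 329 at 5 mM against 163, 173 and 160 (0.89, SE 0.12, limma, adjusted p = 0.00111). E2f1, a transcription factor of S phase genes, read 157, 158 and 179 against 61.3, 73.0 and 68.9 (1.07, SE 0.17, adjusted p = 0.00447). Ccnd1, cyclin D1, read 245, 214 and 310 against 136, 131 and 81.1 (1.03, SE 0.19, adjusted p = 0.0120, 0.0702 without DM_5mM-3 and 0.0757 with only the DM arrays). For all 3 every 5 mM culture lay above every 25 mM culture. Pcna, the sliding clamp, and Mcm5, a helicase subunit, both named after their values were seen, differed by 0.41 and 0.71 and were called only with the block (adjusted p = 0.0123 and 0.0319). Rrm2, a subunit of ribonucleotide reductase, went the other way (-0.36, adjusted p = 0.330). The cell cycle inhibitor Cdkn1a read 7217, 4046 and 5923 against 7702, 7370 and 4511 (-0.19, SE 0.23) and was not called.

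Promoters of mitotic genes commonly carry the CHR element, here TTTGAA on either strand, and the stretches of Ube2c and Cdc20 are shown with it in capitals.
Ube2c, chr2:164769679-164769928, plus strand: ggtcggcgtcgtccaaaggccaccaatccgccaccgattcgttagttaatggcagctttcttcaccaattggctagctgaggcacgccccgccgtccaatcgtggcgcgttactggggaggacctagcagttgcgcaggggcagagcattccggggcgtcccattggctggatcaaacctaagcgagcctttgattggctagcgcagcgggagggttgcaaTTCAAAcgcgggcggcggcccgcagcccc
Cdc20, chr4:118437344-118437593, minus strand: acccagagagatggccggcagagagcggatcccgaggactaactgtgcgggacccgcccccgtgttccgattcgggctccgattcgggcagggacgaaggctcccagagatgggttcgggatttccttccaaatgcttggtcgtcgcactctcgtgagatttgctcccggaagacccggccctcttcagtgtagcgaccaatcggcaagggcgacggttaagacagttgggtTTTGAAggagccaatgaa
Of the 15 fallen G2 and mitosis genes 6 (40%) had this motif in the 250 bases, namely Ube2c, Cdc20, Ccnb2, Mki67, Prc1 and Top2a, against 18.3% of all promoters and 13.1% of those of tested genes. The match begins 29 bases before the start of Ube2c and 18 before that of Cdc20. A CCAAT box, searched in addition after these results were seen, was present in 13 of the 15 (86.7%), against 37.5% of all promoters and 39.7% of those of tested genes. With 6 bases the CHR motif occurs often by composition alone, and these shares were not tested. As the list was made of mitotic genes, whose promoters commonly carry the CHR element, its share was set in part by that choice. The shares among members of the list that did not fall were not counted.

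**Figure D2:**
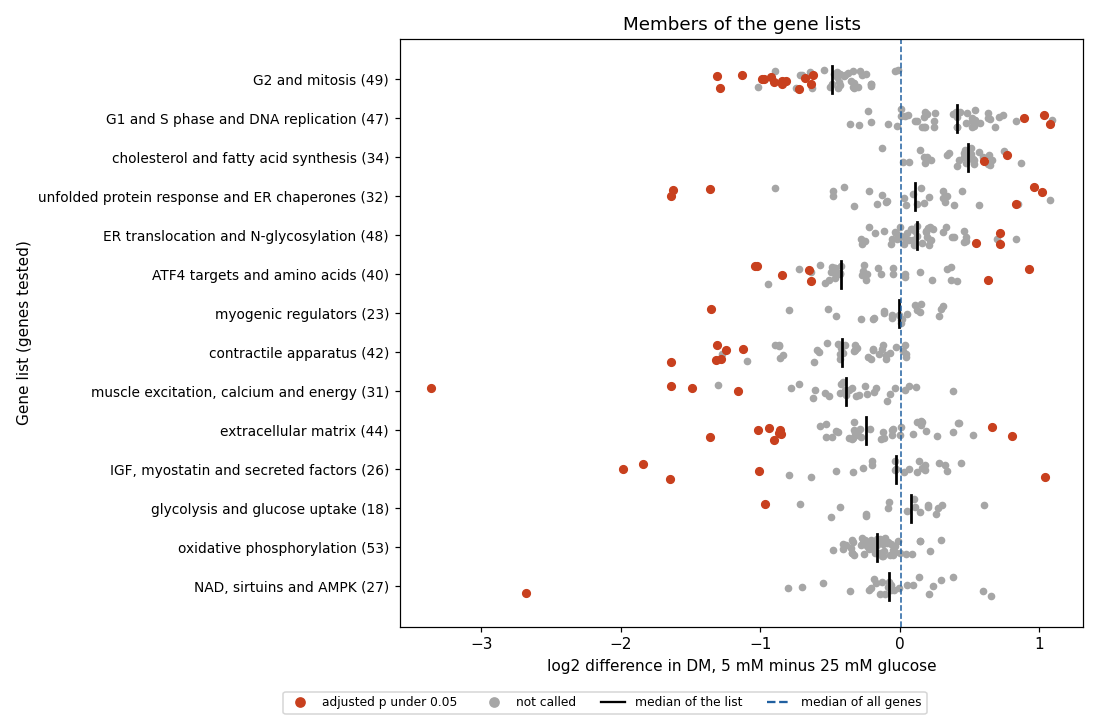
log2 difference in DM (5 mM minus 25 mM) of each tested member of 14 gene lists, called genes in red, with the list's median as a black bar and the median of all genes (0.01) as a dashed line. G2 and mitosis lies left of 0, and G1 and S phase and lipid synthesis lie mostly to the right.

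The regulators that start the muscle programme did not differ beyond their spread, whereas a set of contractile and energy genes fell. Myod1 read 1565, 1318 and 1252 at 5 mM and 1400, 1381 and 1280 at 25 mM (0.02, SE 0.14, limma, adjusted p = 0.980). Myog, myogenin, read 7165, 3964 and 7622 against 7391, 6776 and 4219 (0.01, SE 0.26, adjusted p = 0.995), with both low values in the low-18S cultures. The muscle fusogens Mymk and Mymx differed by -0.05 (SE 0.22) and 0.11 (SE 0.35). Of 23 myogenic regulators tested 1 fell and 0 rose (median -0.01). That one was Mef2c, a factor that acts with myogenin, which read 92.2, 95.9 and 56.8 against 250, 233 and 224 (-1.35, SE 0.27, adjusted p = 0.0202). Its call was lost without DM_5mM-1 (0.0522), DM_5mM-3 (0.113), DM_25mM-1 (0.0985) or DM_25mM-2 (0.0795) with only the high-18S cultures (0.108) and with a pseudocount of 1 (0.380).

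Of 42 contractile genes 6 fell and 0 rose, with a median of -0.41 and 38 negative differences. Actn2, which anchors thin filaments at the Z-disc, read 462, 263 and 348 at 5 mM against 1408, 1088 and 932 at 25 mM (-1.64, SE 0.20, limma, adjusted p = 0.000551). Csrp3, a Z-disc LIM protein, read 348, 234 and 295 against 771, 720 and 652 (-1.25, SE 0.20, adjusted p = 0.00421). Myom1, of the M-band, fell by 1.12 (SE 0.19). The myosin heavy chains Myh8 (-1.32, SE 0.23), Myh1 (-1.31, SE 0.23) and Myh7 (-1.28, SE 0.26) also fell. Myh1 lost its call without DM_25mM-1 (adjusted p = 0.0599), and Myh7 without DM_5mM-2 (0.0778), DM_25mM-1 (0.124) or DM_25mM-2 (0.118). That of Myh7 was also lost with only the DM arrays (0.0702), and that of Myom1 with only the high-18S cultures (0.116). These genes read low in GM, and with a pseudocount of 1 only Actn2 and Csrp3 of the 6 stayed called. By contrast the skeletal actin Acta1, the brightest of those named, read 9808, 4726 and 10300 against 13277, 11931 and 5849 (-0.32, SE 0.44), and embryonic myosin Myh3 read 3816, 2478 and 3082 against 5456, 4617 and 3418 (-0.52, SE 0.23, adjusted p = 0.439). Both overlapped between the groups, the low-18S culture being the lowest of its group each time. Within each 18S class every 5 mM reading of both genes lay below every 25 mM reading. Neither was called under any alternative, where limma's adjusted p was 0.649 at lowest for Acta1 and 0.0743 for Myh3. In such bulk samples fewer fused cells and less RNA per cell cannot be told apart.

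In the list of muscle excitation, calcium and energy 4 of 31 genes fell and 0 rose (median -0.38). Mss51 (Entrez 74843, chromosome 14, 20482857 to 20496901, GRCm38.p6), a muscle protein that acts on mitochondria, had the largest fall of all genes. It read 74.8, 216 and 185 at 5 mM against 1452, 1749 and 1894 at 25 mM on MB (-3.36, SE 0.37, limma, adjusted p = 0.000211). Mb, myoglobin, read 2291, 1515 and 1838 against 6960, 6163 and 4593 (-1.64, SE 0.25, adjusted p = 0.00287). Pgam2, muscle phosphoglycerate mutase, read 197, 178 and 166 against 625, 640 and 395 (-1.49, SE 0.20, adjusted p = 0.000994), and Ckb, brain-type creatine kinase, fell by 1.16 (SE 0.20, adjusted p = 0.00713). The groups did not overlap for these genes, and the calls held without each culture. That of Mb was lost with a pseudocount of 1 (0.318), and that of Ckb with only the DM arrays (0.110). Muscle creatine kinase Ckm read 2627, 1921 and 2562 against 4193, 3784 and 2994, also without overlap, and was not called (-0.62, SE 0.23, adjusted p = 0.281, and 0.0417 with the block). Among 22 genes of adhesion and fusion 2 fell: Itgb1bp2, melusin, from 2910, 2781 and 1956 to 927, 849 and 1028 (-1.41, SE 0.17, adjusted p = 0.000411), and the junction protein Jam2 (-0.66, SE 0.15, adjusted p = 0.0422). The latter was lost without DM_5mM-1, DM_5mM-3, DM_25mM-2 or DM_25mM-3 (0.108 to 0.183) and with only the DM arrays (0.205) or the high-18S cultures (0.104).

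**Figure D3:**
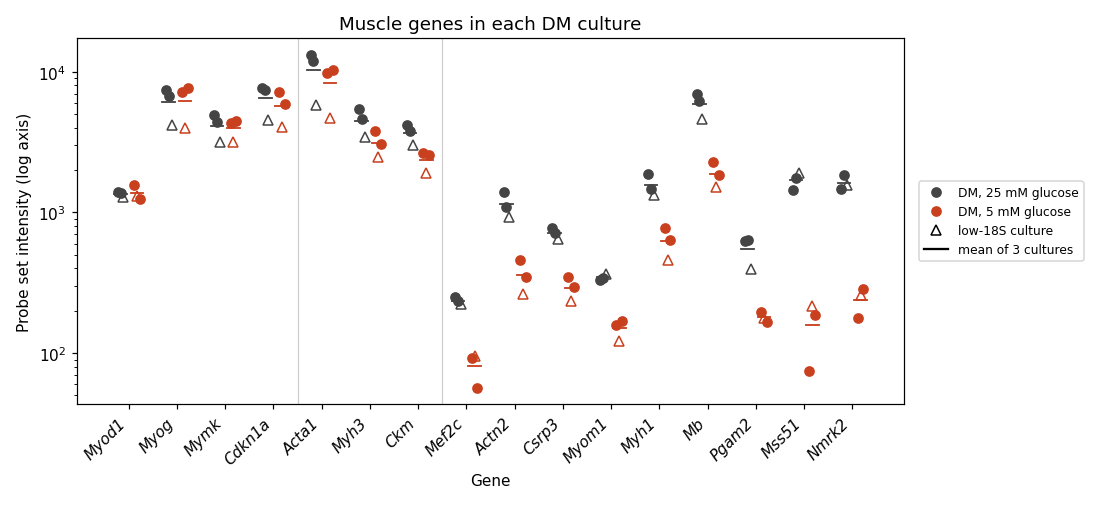
Intensity of muscle genes (log axis) in each DM culture, 25 mM glucose in grey and 5 mM in red, with open triangles for the low-18S cultures and bars for the mean of 3. Myod1, Myog, Mymk, Cdkn1a, Acta1 and Myh3 overlap between the groups, while the genes from Mef2c to Nmrk2 lie lower at 5 mM.

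Among genes that handle glucose itself a few fell and most were not called, while 0.887% of all genes fell. Of 18 genes of glycolysis and glucose uptake 1 fell and 0 rose: Pfkm, muscle phosphofructokinase, from 1944, 1911 and 1475 at 25 mM to 1018, 793 and 878 at 5 mM (-0.97, SE 0.14, limma, adjusted p = 0.00248). The transporter Slc2a1 (-0.09, SE 0.16) and hexokinase Hk2 (0.28, SE 0.18) were not called. Glycogen synthase Gys1 and the phosphorylase kinase subunit Phkb fell (-0.91 and -0.51), 2 of 21 genes of the pentose phosphate, hexosamine and glycogen pathways. Both calls were lost without single cultures, that of Gys1 without DM_5mM-2, DM_5mM-3, DM_25mM-1 or DM_25mM-2 (0.0540 to 0.0952) and that of Phkb without any (0.0865 to 0.115). With the 18S block 4 of the 21 fell, against 1.84% of all genes. Txnip, which sensors of glucose are known to induce, read 48.0, 75.2 and 125 against 98.1, 73.6 and 72.1 (-0.04, SE 0.25), with overlapping groups. Of 12 genes of glucose-responsive transcription only Fgf21 was called, and Arrdc4, a relative of Txnip, was under the intensity filter.

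Among 27 genes of NAD, sirtuins and AMPK 1 fell and 0 rose (median -0.07). Nmrk2, the muscle kinase that turns nicotinamide riboside into an NAD precursor (Entrez 69564, chromosome 10, 81198170 to 81202265, GRCm38.p6), read 176, 260 and 283 at 5 mM on MB. At 25 mM it read 1473, 1832 and 1556 (-2.68, SE 0.33, limma, adjusted p = 0.000884), and the call held without each culture. Nampt, the enzyme that salvages nicotinamide for NAD, read 142, 183 and 103 against 122, 139 and 160 (0.00, SE 0.19). The deacetylase gene Sirt1 differed by -0.17 (SE 0.29), and the AMPK catalytic subunits Prkaa1 and Prkaa2 by -0.80 (SE 0.53) and 0.24 (SE 0.41) on MB. None of these 4 passed the test.

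Genes of cholesterol and fatty acid synthesis were shifted upward. Of 34 tested 33 had a positive difference, against 6635 of 12857 over all genes. Of these 34, 2 rose and 0 fell, with a median of 0.49, and with the 18S block 17 rose. Fdft1, squalene synthase, read 935, 1006 and 1021 at 5 mM against 550, 609 and 554 at 25 mM (0.77, SE 0.12, limma, adjusted p = 0.00248). Idi1, of isoprenoid synthesis, read 712, 766 and 818 against 528, 422 and 548 (0.60, SE 0.13, adjusted p = 0.0259), a call lost without any culture but DM_25mM-3 (0.0567 to 0.137). The 5 mM cultures all lay above the others for both. Hmgcs1, which makes HMG-CoA, differed by 0.64 (SE 0.19, adjusted p = 0.145, and 0.000991 with the block). Aacs, which activates acetoacetate for lipid synthesis and was picked after its value was seen, rose by 0.89 (SE 0.14, adjusted p = 0.00277). Fatty acid oxidation had 1 fall in 36 genes, Etfa, an electron carrier (-0.54, SE 0.11, adjusted p = 0.0218), lost without any culture but DM_25mM-3 (0.0571 to 0.107). Cpt1a, which admits fatty acids to mitochondria (-0.19, SE 0.14), Pdk4, a brake on pyruvate oxidation (-0.27, SE 0.18), and the lipid droplet protein Plin2 (-0.41, SE 0.15, adjusted p = 0.290) were not called. With the block only Plin2 of these was called (limma, adjusted p = 0.0134). Limma called 0 of 53 genes of oxidative phosphorylation (median -0.16) and 0 of 30 of the TCA cycle (median -0.12). At an unadjusted p under 0.05 there were 5 and 6, beside 1220 of 12857 over all genes. With the block 6 and 2 fell, beside 236 over all genes.

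Genes under ATF4, a factor of the amino acid response, leaned lower at 5 mM. Of 40 tested 30 had a negative and 10 a positive difference, and the median was -0.42. Of these 40, 5 fell and 2 rose. With the 18S block 12 fell and 2 rose, where 1.84% and 1.41% of all genes did. Aldh18a1, of proline synthesis, read 124, 102 and 103 at 5 mM against 195, 253 and 194 (-0.85, SE 0.15, limma, adjusted p = 0.00713, and 0.0676 with only the DM arrays). None of its 4 other probe sets was called, and one had the opposite sign (0.11). Chac1, which degrades glutathione, read 71.1, 62.9 and 57.9 against 138, 174 and 140 (-1.02, SE 0.20, adjusted p = 0.0151), lost without DM_5mM-3 (0.0688) or DM_25mM-2 (0.0856) and with only the high-18S cultures (0.0645). In GM Chac1 read 86.6, 61.3 and 59.3 at 5 mM against 176, 167 and 108 at 25 mM. That difference of -0.92, close to the one in DM, was not called (limma, adjusted p = 0.304). The others that fell, the synthetases Tars and Iars and the stress protein Nupr1, lost their calls in most omissions of 1 culture, with adjusted p up to 0.153, 0.180 and 0.156, and Iars also with a pseudocount of 1 (0.0536). A second probe set was called lower for Iars (-0.98, limma, adjusted p = 0.0019) and for Nupr1 (-1.27, adjusted p = 0.00222). Phgdh, the first enzyme of serine synthesis, rose from 979, 897 and 748 to 1863, 1317 and 1893 (0.92, SE 0.17, adjusted p = 0.00892, 0.0567 and 0.0572 without DM_5mM-1 and DM_5mM-3, and 0.0660 with only the DM arrays). Wars, tryptophanyl-tRNA synthetase, differed by 0.64 (adjusted p = 0.0481, up to 0.230 in omissions and 0.0566 with a pseudocount of 1), and another probe set of it had the opposite sign. Atf4 itself (-0.24, SE 0.18) and its target Asns (-0.05, SE 0.13) were not called. Aldh1l2, a mitochondrial enzyme of folate metabolism in no list, had the largest rise of all genes. It read 2198, 3254 and 2172 against 525, 458 and 583 on MB (2.22, SE 0.22, adjusted p = 0.000116).

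Secreted factors included several of the largest falls. Fgf21, a metabolic hormone (Entrez 56636, chromosome 7, 45613890 to 45615490, GRCm38.p6), read 172, 280 and 304 at 5 mM against 1206, 1017 and 889 at 25 mM (-1.99, SE 0.23, limma, adjusted p = 0.000311). Fst and Fstl3 encode follistatins, which bind activins and myostatin. Fst read 320, 324 and 294 against 1172, 1075 and 1270 (-1.84, SE 0.29, adjusted p = 0.00346, and 0.0980 with a pseudocount of 1). Fstl3 read 71.4, 98.8 and 83.3 against 335, 288 and 297 (-1.65, SE 0.19, adjusted p = 0.000294). For all 3 the groups lay far apart, and of 26 genes of the IGF, myostatin and secreted factor list 4 fell and 1 rose (median -0.03). The fourth fall was the glycoprotein Fstl1 (-1.01, SE 0.17, adjusted p = 0.00696, and 0.0564 with only the DM arrays), and the rise was the chemokine Cxcl12, which read 55.8, 96.4 and 67.8 against 27, 20.8 and 25.9 (1.05, SE 0.18, adjusted p = 0.00708). All 25 mM readings of Cxcl12 lay under the filter's threshold of 33.2, so the size of its difference depends on the pseudocount (1.51 with 1 and 0.62 with 64). Its call was lost with only the DM arrays (0.0983) or the high-18S cultures (0.0676). Outside the list the cytokine Il17b fell from 518, 672 and 437 to 116, 129 and 94.2 (-2.06, SE 0.20, adjusted p = 0.000137). Its family's receptor chain Il17ra and the growth factor Csf1, both named after their values were seen, fell (-1.19, SE 0.18, and -1.19, SE 0.13). Another probe set of Il17ra differed by only -0.29 and was not called.

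Fgf21 and Chac1 are known targets of ATF4, and both fell. Their 250 bases upstream are shown with the C/EBP-ATF response element, TGATGNAA on either strand, in capitals apart from its free base.
Fgf21, chr7:45615491-45615740, minus strand: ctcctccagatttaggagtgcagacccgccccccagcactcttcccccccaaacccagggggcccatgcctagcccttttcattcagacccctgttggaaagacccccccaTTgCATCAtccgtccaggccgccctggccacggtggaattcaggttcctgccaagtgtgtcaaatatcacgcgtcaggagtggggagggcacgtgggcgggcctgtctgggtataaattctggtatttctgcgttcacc
Chac1, chr2:119350992-119351241, plus strand: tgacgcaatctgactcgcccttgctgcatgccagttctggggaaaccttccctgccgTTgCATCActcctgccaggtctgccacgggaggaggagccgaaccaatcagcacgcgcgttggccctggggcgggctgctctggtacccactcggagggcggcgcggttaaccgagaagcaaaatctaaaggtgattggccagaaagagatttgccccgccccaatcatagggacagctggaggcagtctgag
The match begins 139 bases before the start of Fgf21 and 193 before that of Chac1, on the opposite strand in both. Of the 5 fallen members of the ATF4 list 3 (60%) held it, Chac1, Nupr1 and Tars, against 3.91% of all promoters and 2.46% of those of tested genes. As many of these genes were put on the list as ATF4 targets, their share was set in part by that choice.

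Of 44 extracellular matrix genes 7 fell and 2 rose (median -0.24). Both chains of basement membrane collagen IV fell: Col4a2 read 389, 426 and 375 at 5 mM against 815, 789 and 727 at 25 mM (-0.94, SE 0.11, limma, adjusted p = 0.000294), and Col4a1 fell by 0.85 (SE 0.13, adjusted p = 0.00309). Tnc, tenascin C, read 207, 207 and 205 against 341, 445 and 429 (-0.90, SE 0.12, adjusted p = 0.00108). No 5 mM culture reached the lowest 25 mM culture for these genes. Col8a1 (-1.36) lost its call without DM_25mM-2 (0.0508), and Timp3, a protease inhibitor (-0.86), lost it without DM_5mM-3, DM_25mM-1 or DM_25mM-2 (0.0683 to 0.0856). With only the DM arrays both were lost (0.0752 and 0.110). Col8a1 read 12.6 in DM_5mM-1 and 31.5 in DM_5mM-3, under the filter's threshold of 33.2. Its size ran from -1.94 to -0.85 over the alternatives. The calls of Col1a1 (-0.87) and Postn (-1.02) were lost in every omission of 1 culture, with adjusted p up to 0.172 and 0.210, and with a pseudocount of 1 (0.0883 and 0.35). The rises were P4ha1, collagen prolyl hydroxylase (0.66, SE 0.14), and Mgp, an inhibitor of calcification (0.81, SE 0.18), whose calls were lost in 5 and 4 of 6 omissions. Outside the list the matrix proteins Olfml3 (-1.70, SE 0.12, adjusted p = 1.46e-05) and Cilp (-2.10, SE 0.27, MB) fell. Mfap4, a microfibril protein, was under the filter on mean intensity because it was near 0 in GM. It read 6.76, 6.85 and 6.61 against 240, 233 and 192, and with no filter it was called (adjusted p = 3.43e-06). Its 5 mM readings lie far under the filter's threshold of 33.2, where the pseudocount sets the size of a log2 difference, so none is given. It was picked after its values were seen.

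Further genes stood out singly. Ccn2, a matricellular target of YAP signalling, read 27.2, 49.8 and 28.5 against 110, 153 and 161 (-1.56, SE 0.20, limma, adjusted p = 0.000967). Its readings of 27.2 and 28.5 lay under the filter's threshold of 33.2, and its size ran from -2.01 to -1.05 over the alternatives. Of 29 genes of the serum and immediate early response 3 fell and 1 rose. Ahr, the aryl hydrocarbon receptor, read 79.0, 85.2 and 79.9 against 224, 268 and 333 (-1.52, SE 0.15, adjusted p = 0.000137), although another probe set of Ahr differed by only -0.10. Among the largest rises, Ifitm3, an interferon-induced membrane protein, read 1093, 1323 and 1109 against 519, 487 and 618 (1.09, SE 0.13, adjusted p = 0.000467). The calcium-binding Golgi protein Nucb1 read 600, 523 and 578 against 246, 285 and 222 (1.12, SE 0.14, adjusted p = 0.000880). Anxa3, an annexin, read 750, 661 and 745 against 299.6, 379.7 and 331 (1.05, SE 0.12, adjusted p = 0.000294), and Cyb5r1, a cytochrome b5 reductase, rose by 1.06 (SE 0.12). The other rises of the same size were those of the linker histone H1f2 (1.05), the mitochondrial protein Ghitm (1.07), the peptidase Scpep1 (1.12), the tetraspanin Tspan9 (1.15), the glycoprotein Lgals3bp (1.17) and the matrix protein Prelp (1.25). The other probe sets of H1f2 gave 0.52 and 0.18 and were not called. Prelp lost its call without DM_5mM-3 (0.0631). With only the high-18S cultures Prelp (0.146) and Lgals3bp (0.0543) were lost, and with only the DM arrays Ghitm (0.0628). Ctsl, the lysosomal protease cathepsin L, rose by 0.62 (SE 0.11, adjusted p = 0.00892), lost without DM_5mM-1 (0.0544) or DM_25mM-1 (0.0577) and with only the DM arrays (0.0768). Limma called 0 of 35 genes of the proteasome and 0 of 26 ribosomal proteins, and 0 of either passed at an unadjusted p under 0.05 or with the block (medians -0.09 and 0.15). Markers of other cell types were mostly under the filter. Of 10 adipocyte genes 3 were tested, of 7 osteoblast genes 2 and of 13 blood and endothelial genes 4, and limma called 0, with 1 at an unadjusted p under 0.05. Of those tested Dmp1 differed most, 9.45 to 79.7 against 103 to 152 (MB, -1.32, adjusted p = 0.673).

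Regulators of other lists gave smaller counts. In the serum and immediate early list the growth factor Hbegf read 42.1, 55.0 and 42.3 at 5 mM against 99.3, 100.4 and 140.4 (-0.997, SE 0.19, limma, adjusted p = 0.0156), lost without DM_5mM-1, DM_5mM-3 or DM_25mM-3 (0.0688 to 0.0748). Ier5 fell by 0.63 (lost in 4 of 6 omissions, up to 0.0995), and the nuclear receptor Nr4a1 was the one that rose (0.73, lost in every omission, up to 0.143, and with a pseudocount of 1, 0.0647). Of 14 clock genes 2 fell, the repressors Nfil3 (-1.19) and Bhlhe40 (-0.87), and each lost its call in 5 of 6 omissions (up to 0.128 and 0.151). Deptor, an inhibitor of mTOR, was the 1 of 27 genes of that pathway that fell (-0.54, adjusted p = 0.0242, lost in 5 of 6 omissions, up to 0.118). Its other probe sets were all on the lower side, and one on MB was called (-1.06, limma, adjusted p = 0.00965). Lipa, the lysosomal acid lipase, rose by 0.62 and lost its call in every omission (up to 0.189), so that of 29 lysosomal genes 2 rose. Among genes that did not pass the test, the differentiation inhibitor Id2 read 11.1, 58.2 and 12.8 against 53.3, 83.7 and 121 (-1.25, SE 0.34, adjusted p = 0.103), with overlapping groups. The overlap was that of low-18S DM_5mM-2 with high-18S DM_25mM-1. Id2 was called with the 18S block, with only the high-18S cultures and without DM_5mM-2. Its readings of 11.1 and 12.8 lay under the filter's threshold, and its size ran from -1.94 to -0.73 over the alternatives. The respiratory subunits Uqcrc1 and Sdha differed by -0.48 and -0.36 (adjusted p = 0.103 and 0.119), without overlap, and both were called with the block.

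The interaction tested whether the glucose difference in DM departed from that in GM, where limma called 1 gene. It was called for 58 genes (0.451%), 42 with a lower and 16 with a higher difference in DM, and 53 of the 58 were also called in DM. Of the 171 called genes 159 had a GM difference under 0.5 in size on the log2 scale. The share of all tested genes under 0.5 was not counted, so this number does not set the called genes apart. Over all genes the median GM difference was -0.01. Several muscle genes called in DM also read under the filter's threshold in GM, where a difference cannot be seen. Hspa5 read 2161, 2300 and 2005 in GM at 5 mM and 2562, 1979 and 1723 at 25 mM, a difference of 0.06, and the DM difference departed from it by -1.69 (SE 0.22, limma, adjusted p = 0.00769). In GM both groups thus lay between the DM groups. Manf (-1.34), Mss51 (-4.01), Olfml3 (-1.67), Ube2c (-1.25) and Col4a2 (-0.98) departed downward, and Pdia3 (1.13), Aldh1l2 (2.20), Cdt1 (0.93) and Phgdh (1.32) upward. Sh3bp4, of membrane trafficking, read 134, 135 and 127 in DM at 5 mM against 289, 286 and 266 (-0.98, SE 0.13) and departed by -1.53, and the phospholipid-modifying enzyme Plaat3 departed by -1.24. A probe set of Sh3bp4 on MB had the opposite sign in DM and was not called. Col1a1 read 82.5, 81.2 and 77.2 in GM at 5 mM against 20.4, 32.2 and 41.4 at 25 mM, a difference of 0.99 that was not called (adjusted p = 0.271), against -0.87 in DM, where its other probe set gave -0.01. The interaction was not called for Fgf21 (adjusted p = 0.0573), Nmrk2 (0.0808), Creld2 (0.0543) or Pdia6 (0.164). In GM the 18S class runs with glucose, with 2 low-18S cultures at 5 mM and 0 at 25 mM. With the class as a block 130 probe sets had a called interaction against 75 without it, and 17 when only high-18S cultures entered, 1 of which is GM at 5 mM. Omitting DM_5mM-1, DM_5mM-3, DM_25mM-1 or DM_25mM-2 left 35, 40, 30 and 30. Across the 12857 genes, which are not independent replicates, the DM and GM differences had Pearson r = -0.0356.

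**Figure D4:**
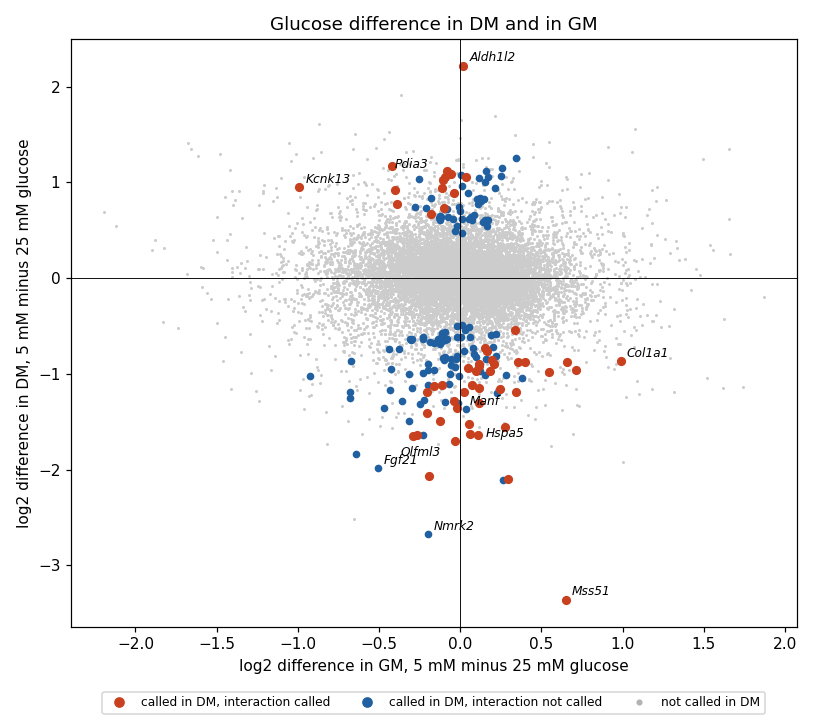
log2 glucose difference (5 mM minus 25 mM) in GM on the x axis and in DM on the y axis, a point for each of 12857 genes, with genes called in DM in red where the interaction was also called and in blue where it was not. Most called genes lie near 0 on the GM axis, and Col1a1 and Kcnk13 lie farthest from it among those with a called interaction.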

How the data were processed

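Each of 12 C2C12 cultures was hybridised to the MA and MB designs. The authors deposited 1 intensity per probe set; the software and scaling are not given in the sources used here, and the arrays share a 2% trimmed mean near 150, so they had been scaled. Values were used as log2(intensity + 20), each design separately. Control probe sets were left out, and probe sets under the 40th percentile of mean log2 intensity (33.2 on MA, 54.1 on MB) were not tested. limma 3.58.1 (R 4.3.3) fitted 4 group means over 12 arrays per design with a trended prior, and p-values were adjusted by Benjamini-Hochberg within a design over all probe sets tested. The fit was tested on simulated data with known changes. A gene is its brightest tested probe set naming it alone, MA preferred. Platform annotation named 1 gene for 20380 MA and 14661 MB probe sets, several for 691 and 245, and none for 1555 and 7605; RefSeq held 20351 and 14486 of the first. Genes named are 27 fixed genes, the 15 largest called rises and falls, the 5 called members per list with the smallest p (where none is called, the member with the smallest p, of which some are left out), and the 10 interaction genes with the smallest p; others are named after their values were seen. The members and lists were chosen with earlier results of these data known. One of the fixed genes is not reported here. The number of arrays limits precision. Alternatives were other pseudocounts, filters and scalings, the DM arrays alone, the 18S class, replicate number as a block, and omission of each culture.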

Additional observations from a re-analysis of the deposited data

Results flagged for a closer look

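For a set of genes named above, the glucose difference in DM departed from that in GM by limma's interaction test at an adjusted p under 0.05. The departure, in log2 units (DM difference minus GM difference), was downward for the muscle genes Mss51 (-4.01), Mb (-1.75), Ckb (-1.41), Actn2 (-1.37), Pgam2 (-1.37), Itgb1bp2 (-1.21), Pfkm (-1.07). All GM readings of Mb, Actn2, Pgam2, Itgb1bp2 and, named below, Il17b lay under the filter's threshold of 33.2. There the pseudocount holds a GM difference near 0, so these departures largely repeat the fall in DM. They cannot show whether glucose acts otherwise on these genes in GM. Mss51 read 25.2 to 90.7 in GM, around the MB threshold of 54.1. Mitotic genes that departed downward were Cenpa (-1.43), Ube2c (-1.25), Mki67 (-1.03), Pttg1 (-0.97), Ccnb2 (-0.88). The ER genes were Herpud1 (-1.85), Hspa5 (-1.69), Manf (-1.34); Herpud1 was not called in DM itself. Among matrix proteins and the matricellular Ccn2 the values were Cilp (-2.39), Col1a1 (-1.86), Ccn2 (-1.83), Olfml3 (-1.67), Col4a1 (-1.05), Tnc (-1.02), Col4a2 (-0.98). Receptors, secreted factors and others comprised Il17b (-1.87), Ahr (-1.58), Bhlhe40 (-1.53), Sh3bp4 (-1.53), Fstl3 (-1.35), Plaat3 (-1.24), Il17ra (-1.21), Csf1 (-0.98), Deptor (-0.88). Upward departures were found for the ER and Golgi genes Prkcsh (0.83), Pdia3 (1.13), Nucb1 (1.2) and for Cdt1 (0.93), Cyb5r1 (1.02), Ifitm3 (1.15), Anxa3 (1.15), Phgdh (1.32), Lgals3bp (1.59), Kcnk13 (1.94), Aldh1l2 (2.20). Kcnk13 read 2.72 to 6.86 in GM at 5 mM and 24.6 to 33.9 at 25 mM, under or close to the threshold of 33.2. Its GM difference of -0.99, and with it the size of its departure, is thus not reliable. The DM call of Kcnk13 (0.95) was lost in 5 of 6 omissions of 1 culture. GM at 5 mM holds 2 of the low-18S cultures and GM at 25 mM 0, and the part of this imbalance in the departures was not tested beyond the block and the high-18S cultures given above.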

How the results depend on the processing

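Called genes named above kept their direction under each of the 16 alternatives that tested them; the 60th percentile filter left 151 of the 171 called genes. Of the 93 named, 57 were called in every omission of 1 culture and 43 under every alternative. Of the 171 called genes 144 stayed called with a pseudocount of 1, 163 with 64, 139 with no filter, 151 with quantile normalization, 148 with median centring, 117 with the replicate block, 93 with only the high-18S cultures, 72 with only the DM arrays and 95 to 128 when 1 culture was omitted. Fitting only the 6 DM arrays called 109 probe sets (30 higher, 79 lower) in place of 231 (86 and 145). The 18S class as a block called 607 (278 higher, 329 lower) and 130 interactions in place of 75, and the high-18S cultures alone called 17 interactions. Omitting 1 DM culture gave 131 to 209 calls, 47 to 83 higher, 82 to 130 lower, and 30 to 104 interactions; the lowest total came without DM_25mM-1. With replicate number as a replicate block 57 probe sets were higher, 100 lower, and 30 interactions were called. Same-numbered DM cultures correlated at 0.34, -0.46 and -0.43 in their deviations from group means on MA. The low-18S cultures bear unlike numbers, DM_5mM-2 and DM_25mM-3, and correlated at 0.72, which weighs on these values. Among the high-18S cultures the pair numbered 1 had 0.34, and pairs of unlike number had 0.23 to 0.33. Whether the numbers pair the cultures cannot be told from this check. The median difference of G2 and mitosis ran from -0.62 with a pseudocount of 1 to -0.35 with 64. Other medians moved as well, extracellular matrix to -0.12 with the 60th percentile filter, ATF4 targets to -0.24 with a pseudocount of 64, and ER translocation to 0.19 without DM_5mM-1. No detection calls were used, so readings under the filter's threshold carry no reliable fold. The causes of these shifts were not tested.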
